A study of Mus musculus with 50 samples.

Results

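The genes described here are the heat shock proteins and DNAJ co-chaperones of mouse hippocampal microglia. They were taken by gene symbol, namely those that begin with Hspa, Hspb, Hspd, Hspe, Hsph or Hsp90, and those with Dnaja, Dnajb or Dnajc followed by a digit, with pseudogenes and Hspbap1 left out. Of 53700 genes in the count tables, 74 had such a symbol, and 64 of them reached 1 CPM (1 count per 1000000) of the mouse's total in 3 or more of the 50 mice, as did 16696 genes in all. These 64 comprised 11 Hspa, 6 Hspb, 3 Hsp90, 4 Dnaja, 12 Dnajb and 25 Dnajc genes, and Hspd1, Hspe1 and Hsph1. Hspb11 and Hspbp1 are members by symbol only. The other 10, among them Dnajb8, Dnajc22, Dnajc5b, Dnajc5g, Hspa12b, Hspa1b, Hspb1, Hspb7 and Hspb9, stayed below the limit and were not tested. Just inside the limit were Dnajb3, which reached 1 CPM in 4 mice, and Hspb2, which did so in 5. Just outside it were Hspa1b, with 2 such mice and a maximum of 1.70 CPM, and Hspb1, with 1 such mouse and a maximum of 1.60 CPM.

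Male C57BL/6J mice were raised under control conditions (CTR) or under early-life stress (ELS) by limited bedding and nesting material from P2 to P9, and CD11b-positive, CD45-intermediate cells were sorted from both hippocampi for RNA-seq with a low-input kit. At P9 there were 12 CTR and 13 ELS mice without injection. At P200, mice of both conditions were injected intraperitoneally with PBS (P200-CTR-PBS, n = 7, and P200-ELS-PBS, n = 6) or with LPS at 1 mg/kg (P200-CTR-LPS, n = 7, and P200-ELS-LPS, n = 5), 3 hours before they were killed. Adult but not P9 tissue was cleared of myelin on Percoll, so age, PBS injection and Percoll cannot be told apart. Each mouse has a label such as P200_5.3_CTR_LPS, and the number before the point is called a nest here. The labels do not define it, and each of the 9 nests at P9 and the 10 at P200 held mice of 1 condition. Whether mice of a nest share a dam is not given, and p-values measure the spread between these mice.

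Total counts ranged from 5152838 to 42231258 per mouse. The microglial markers (10 of 10 found) summed to 52220 ± 6266 CPM (SD, n = 12) in P9-CTR and 82670 ± 2426 (n = 7) in P200-CTR-PBS. The genes detected fell short in 3 libraries, namely mouse P9_19.3_ELS with 12482, P9_19.2_ELS with 15731 and P200_1.1_CTR_PBS with 12854, against 16485 to 21100 in the others. Mouse P200_1.1_CTR_PBS lay above the range of the rest of its group for 18 chaperone genes and below it for 24. Set against the 11 P9-ELS mice outside these libraries, mouse P9_19.2_ELS lay above the range for 32 and below it for 16. In that mouse, Hsp90ab1 read 2647 CPM, against 481.2 to 832.1 in those 11 mice and 907.1 in mouse P9_19.3_ELS. Where leaving out these 3 libraries ended a call described below, the value without them is given.

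Chaperones bind unfolded or partly folded proteins and help them reach or keep their native shape. HSP70 proteins (the Hspa genes) bind and release clients in a cycle driven by ATP, J-domain proteins (the Dnaj genes) bring them clients and stimulate that cycle, and Hsph1 and Hspa4 encode exchange factors of the same superfamily that release the spent nucleotide. HSP90 proteins act late, on signalling proteins such as kinases and steroid receptors, Hspd1 and Hspe1 encode the folding chamber of mitochondria and its lid, and small heat shock proteins (Hspb) hold unfolded proteins without ATP. The cytosolic inducible genes, such as Hspa1a, Hspa1b, Hsph1 and Dnajb1, are switched on by heat shock factor 1. Those of the endoplasmic reticulum (ER), such as Hspa5, Hsp90b1 and Dnajb9, answer to the unfolded protein response.

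Promoters are shown for the 5 genes whose 250 bases before the annotated start (GRCm39, GENCODE annotation) held 1 of the 2 motifs searched on both strands, as the sequence context of the ER and mitochondrial members among the results. The ER stress element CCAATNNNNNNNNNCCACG lay in 3 of 64 members' windows (4.69%) and in 25 of 21770 protein-coding promoters (0.115%). The 3 members were Hspa5, the ER HSP70 BiP (chr2:34661854-34662103, plus strand), Hsp90b1, the ER HSP90 GRP94 (chr10:86541379-86541628, minus strand), and Dnajc3, an ER J-domain protein that inhibits the kinase PERK (chr14:119175095-119175344, plus strand). The heat shock element GAANNTTCNNGAA lay in 2 of 64 windows (3.12%) and in 76 of all promoters (0.349%). Both windows belonged to Hspd1 (chr1:55127184-55127433, minus strand) and Hspe1 (chr1:55127041-55127290, plus strand), which lie head to head, so their windows overlap and hold the same stretch, with a match on each strand. A match describes letters in the window and not a bound site, and a window without one says nothing about the factor. Below, each window runs 5′ to 3′ on the gene's strand with the matches in capitals.
Hspa5: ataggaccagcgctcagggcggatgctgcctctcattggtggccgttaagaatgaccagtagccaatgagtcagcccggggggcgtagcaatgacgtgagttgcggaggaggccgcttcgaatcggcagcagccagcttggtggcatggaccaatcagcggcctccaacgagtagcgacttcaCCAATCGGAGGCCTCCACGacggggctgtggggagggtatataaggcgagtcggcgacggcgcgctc
Hsp90b1: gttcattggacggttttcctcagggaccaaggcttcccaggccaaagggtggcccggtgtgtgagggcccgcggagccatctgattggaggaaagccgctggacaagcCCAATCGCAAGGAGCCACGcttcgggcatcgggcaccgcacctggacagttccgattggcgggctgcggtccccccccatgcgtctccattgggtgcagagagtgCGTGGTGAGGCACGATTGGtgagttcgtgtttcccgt
Dnajc3: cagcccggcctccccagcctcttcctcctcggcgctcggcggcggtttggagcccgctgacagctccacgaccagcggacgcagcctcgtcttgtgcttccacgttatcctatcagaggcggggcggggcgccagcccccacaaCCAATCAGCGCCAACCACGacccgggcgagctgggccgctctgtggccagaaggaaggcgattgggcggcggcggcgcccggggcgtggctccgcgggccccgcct
Hspd1: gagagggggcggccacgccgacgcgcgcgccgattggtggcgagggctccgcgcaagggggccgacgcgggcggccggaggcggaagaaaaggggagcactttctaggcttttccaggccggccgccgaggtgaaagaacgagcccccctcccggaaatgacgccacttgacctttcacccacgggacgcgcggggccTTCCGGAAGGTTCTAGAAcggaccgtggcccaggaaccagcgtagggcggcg
Hspe1: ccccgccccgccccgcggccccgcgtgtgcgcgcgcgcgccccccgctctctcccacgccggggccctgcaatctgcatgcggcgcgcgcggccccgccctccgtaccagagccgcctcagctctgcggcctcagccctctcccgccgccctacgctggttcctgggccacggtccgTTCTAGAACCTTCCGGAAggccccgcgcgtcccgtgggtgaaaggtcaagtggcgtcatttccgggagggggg
In Hspa5 the match ran from 67 to 49 bases before the start. Hsp90b1 held 2 matches, 1 of them on the reverse strand, and in Hspd1 and Hspe1 overlapping matches on both strands formed 1 run of 18 letters.

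The members together took a small share of the microglial transcripts. Their counts were 0.697% to 1.49% of all counts per mouse (median 0.983%), with means of 0.932% ± 0.081 (SD, n = 12) in P9-CTR, 0.955% ± 0.167 (n = 13) in P9-ELS, 1.06% ± 0.029 (n = 7) in P200-CTR-PBS, 1.02% ± 0.213 (n = 6) in P200-ELS-PBS, 1.00% ± 0.114 (n = 7) in P200-CTR-LPS and 0.991% ± 0.084 (n = 5) in P200-ELS-LPS. Hspa8, Hspa5, Hsp90b1 and Hsp90ab1 made up 61.9% to 75% of these member counts. Hspa8 encodes HSC70, the constitutive cytosolic HSP70, and Hsp90ab1 the constitutive cytosolic HSP90. Per kilobase of annotated exons, the P200-CTR-PBS level was 504.3 ± 36.9 CPM per kb for Hspa5, 347.0 ± 31.2 for Hspa8, 166.2 ± 20.5 for Hsp90b1, 127.0 ± 16.8 for Hsp90ab1 and 80.98 ± 15.0 for Dnajb9. The order of the first pair depended on the gene model: Hspa8 stood at 0.688 times Hspa5 with the length of all annotated exons and at 2.23 times with that of the canonical transcript. At the other end were Hspb8, with no count in P200-CTR-PBS, and Dnajc6, at 0.00515 ± 0.00684 CPM per kb.

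**Figure D1:**
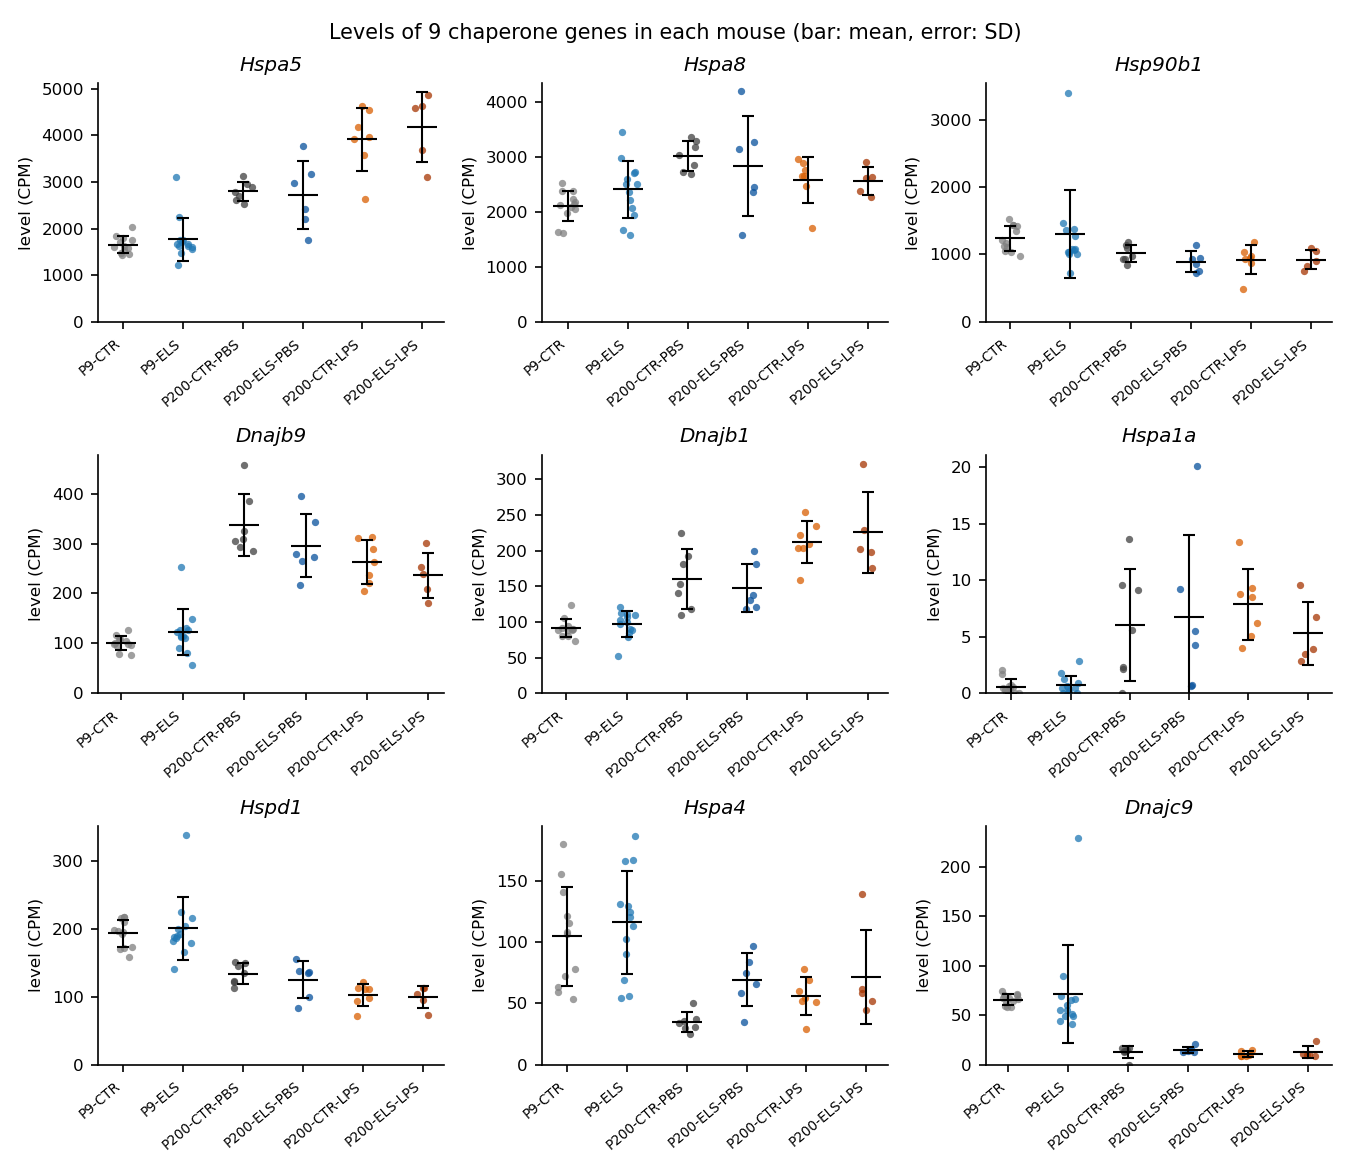
Level in CPM (y axis, from 0) of 9 chaperone genes in each of 50 mice (points), by group (x axis), with the mean and SD as bars. Hspa5 and Dnajb9 sit higher at P200 than at P9, Dnajc9 and Hspa4 sit lower, and mouse P9_19.2_ELS stands far above its group for Hsp90b1 (3389 CPM).

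The first comparison asks whether chaperone transcripts differed at the end of the stress period. Between P9-ELS and P9-CTR, 0 of 64 members reached an adjusted p under 0.05 in edgeR's quasi-likelihood fit, where 0% of all tested genes were called, and 0 members did so with the likelihood-ratio test or DESeq2. Before adjustment, 2 members had a p under 0.05, Hspb3 and Dnajb9, against 914 of all genes (5.47%), and the smallest adjusted p of a member was 0.908. Of the 64 log2 differences, 59 lay within 0.5 of 0, and their median was 0.08 against 0.00 over all genes. Hspa5 read 1429 to 2038 CPM (median 1620) in P9-CTR and 1228 to 3109 (median 1661) in P9-ELS, and the ranges overlapped throughout. Hspa1a, the main stress-inducible HSP70, was near 0 in both groups, from 0 to 2.03 CPM (median 0.469) in P9-CTR and from 0 to 2.87 (median 0.476) in P9-ELS.

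Among PBS-injected adults, the question is whether early-life stress left a lasting difference, and again 0 members passed the quasi-likelihood test (0.168% of all genes were called, 28 genes). Before adjustment 5 members had a p under 0.05, Hspa4, Dnajc13, Dnajc1, Dnajc15 and Hspb8, and 52 of 64 log2 differences lay within 0.5 of 0. The smallest adjusted p belonged to Hspa4, which encodes an HSP110-type exchange factor for HSP70. Hspa4 read 25.3 to 50.3 CPM (median 33.7, n = 7) in P200-CTR-PBS and 35.0 to 97.0 (median 70.4, n = 6) in P200-ELS-PBS. Only 1 of the 6 ELS mice, P200_17.2_ELS_PBS, fell inside the CTR range, and the log2 difference was 1.00 (SE 0.28, adjusted p = 0.107). Over the alternatives and with each mouse left out it stayed between 0.88 and 1.14 with adjusted p from 0.0391 to 0.238. It passed under 2 of these settings, edgeR's likelihood-ratio test (adjusted p = 0.0391) and DESeq2 (adjusted p = 0.0467). The inducible set did not pass: Hspa1a differed by 0.15 (SE 0.87), Hsph1 by -0.11 (SE 0.35) and Dnajb1 by -0.11 (SE 0.16) on the log2 scale. Among LPS-injected adults, 0 members passed between P200-ELS-LPS and P200-CTR-LPS (0% of all genes were called), 2 had an unadjusted p under 0.05 (Hspb8 and Dnajc6, both at or near 0 counts), and 58 of 64 lay within 0.5 of 0. With the likelihood-ratio test, DESeq2 and every other alternative run, 0 members passed between ELS and CTR at P9, after LPS or in either interaction.

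The largest differences among these genes were between P9 and P200, and they ran in both directions. In CTR mice, 17 members were higher at P200 (17.4% of all genes were called higher) and 16 lower (26.6%). With a log2 difference above 1 besides, 7 were higher (7.98% of all genes) and 7 lower (18.5%). In ELS mice, 13 were higher (17.15% of all genes) and 18 lower (25%), with 7 (8.68%) and 8 (17.5%) beyond a log2 difference of 1. These shares are those of a comparison in which over 40% of all genes were called, and the median member moved by -0.01 in CTR and -0.11 in ELS on the log2 scale, against -0.09 and -0.01 over all genes. With total-count scaling, 15 were higher and 21 lower in CTR, where 32.12% of all called genes were higher. Without the 3 libraries with few detected genes, 41 members passed in CTR and 37 in ELS. The share of all genes called in that fit is not given here, so these counts describe the members alone. In these bulk samples, fewer cells of a type and less RNA per cell cannot be told apart.

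ER members rose and fell side by side. Hspa5 read 1429 to 2038 CPM (median 1620, n = 12) in P9-CTR and 2535 to 3121 (median 2793, n = 7) in P200-CTR-PBS. Every P200-CTR-PBS mouse lay above every P9-CTR mouse, while the ELS groups overlapped. Hspa5 rose by 0.76 on the log2 scale in CTR (SE 0.12, adjusted p = 1.63e-06) and by 0.62 in ELS (SE 0.13, adjusted p = 0.000102). Dnajb9, encoding ERdj4, a J-domain partner of BiP in the ER, read 77.5 to 127.7 CPM (median 100.5) in P9-CTR and 286.0 to 457.7 (median 309.3) in P200-CTR-PBS. These groups did not overlap, and Dnajb9 rose by 1.74 in CTR (SE 0.15, adjusted p = 1.85e-13) and 1.27 in ELS (SE 0.16, adjusted p = 3.04e-09). Hspa13, an HSP70-like ER protein, rose by 1.00 in CTR and 0.67 in ELS. In the opposite direction, Dnajc10, encoding the ER disulfide reductase ERdj5, read 80.2 to 113.7 CPM (median 98.3) in P9-CTR and 38.3 to 66.0 (median 47.2) in P200-CTR-PBS. It fell by 0.98 in CTR (SE 0.13, adjusted p = 1.29e-08) and 1.06 in ELS, without overlap in either condition. Dnajc3 fell by 0.31 in CTR (adjusted p = 0.0415, lost without any 1 of 14 of the 19 mice) and differed by -0.22 in ELS (adjusted p = 0.174). Hsp90b1, which shares the ER stress element with Hspa5 and Dnajc3, differed by -0.28 in CTR (adjusted p = 0.181) and fell by 0.54 in ELS (adjusted p = 0.0133). Without the 3 libraries Hsp90b1 passed in both, at -0.32 (adjusted p = 0.0318) and -0.35 (adjusted p = 0.0231). Of 11 ER members, 3 rose and 2 fell in CTR (17.4% and 26.6% of all genes), and 3 rose and 3 fell in ELS (17.15% and 25%). The 3 genes with the element did not move one way.

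The list of heat-inducible cytosolic and nuclear chaperones (17 listed, 15 tested) also held constitutive genes such as Hspa8 and Hsp90ab1. Of the tested genes, 8 rose and 3 fell in CTR (17.4% and 26.6% of all genes). In ELS 4 rose and 3 fell (17.15% and 25%). Immediate early genes, which answer quickly to stimulation and handling, were also higher in the adults, with 7 of 13 tested rising in CTR (median 1.03 on the log2 scale) and 8 in ELS (median 1.05), and 0 falling. They summed to 378.7 to 503.0 CPM in P9-CTR and 860.6 to 1129 in P200-CTR-PBS, and their part in the chaperone differences was not tested. Hspa1a read 0 to 2.03 CPM (median 0.469) in P9-CTR and 0 to 13.6 (median 5.61) in P200-CTR-PBS, and 0 to 2.87 (median 0.476) in P9-ELS and 0.605 to 20.0 (median 4.89) in P200-ELS-PBS. Of the 7 P200-CTR-PBS mice 6 lay above every P9-CTR mouse, and mouse P200_1.1_CTR_PBS had no count. Hspa1a rose by 3.39 in CTR (SE 0.76, adjusted p = 0.000284) and 3.33 in ELS (SE 0.76, adjusted p = 0.000379), and by 3.61 and 3.501 without the 3 libraries. Of the 100-base stretches of the Hspa1a transcript, 48.6% occur unchanged elsewhere in the genome, including Hspa1b, and the files count uniquely mapped reads, so the split between the pair is uncertain. Hspa1b had 3 counts over the 12 P9-CTR mice and 52 over the 7 P200-CTR-PBS mice, and 0 and 53 in the ELS groups.

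Dnajb1, the J-domain partner of inducible HSP70, read 72.9 to 124.0 CPM (median 89.5) in P9-CTR and 110.0 to 224.9 (median 153.4) in P200-CTR-PBS, and rose by 0.81 in CTR (SE 0.13, adjusted p = 1.99e-06) and 0.61 in ELS (SE 0.14, adjusted p = 0.000299). Dnajb4, a close relative of Dnajb1, went from 8.40 to 21.0 CPM (median 12.9) to 26.8 to 43.0 (median 32.3) in CTR, without overlap. It rose by 1.32 in CTR (SE 0.19, adjusted p = 1.63e-07) and was 2.30-fold higher in ELS. Dnajb2, encoding a J-domain protein that binds ubiquitin, rose by 1.63 in CTR and 1.83 in ELS. Dnaja1, a cytosolic partner of HSC70, rose by 0.66 in CTR (SE 0.17, adjusted p = 0.00139) and gave 0.38 in ELS (adjusted p = 0.0790, and 0.48 with adjusted p = 0.00632 without the 3 libraries). Dnaja4, a cytosolic J-domain protein, rose by 1.65 in CTR (SE 0.60, adjusted p = 0.0229), from a median of 0.815 to 3.59 CPM. Hsph1 rose by 0.77 in CTR (SE 0.29, adjusted p = 0.0286), and the call was lost without mouse P200_18.1_CTR_PBS (0.62, adjusted p = 0.101) or P200_18.2_CTR_PBS (0.64, adjusted p = 0.0895). Its ELS value was 0.69 (adjusted p = 0.0629). Without the 3 libraries Hsph1 passed in both, by 0.99 (adjusted p = 0.000165) and 0.72 (adjusted p = 0.00608). Hspa8 rose by 0.51 in CTR (SE 0.13, adjusted p = 0.000883), with P9-CTR at 1607 to 2517 CPM and P200-CTR-PBS at 2683 to 3354, and differed by 0.23 in ELS (adjusted p = 0.158).

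The cytosolic HSP90 genes and the exchange factor Hspa4, also on the heat-inducible list, were not called higher. Hsp90aa1, the stress-inducible cytosolic HSP90, read 122.1 to 187.1 CPM (median 153.5) in P9-CTR and 73.2 to 118.7 (median 94.6) in P200-CTR-PBS. It fell by 0.63 in CTR (SE 0.21, adjusted p = 0.0134) and 1.08 in ELS (SE 0.23, adjusted p = 0.000112), and no adult PBS mouse reached its P9 group. Hsp90ab1 differed by 0.00 in CTR (SE 0.21, adjusted p = 0.990) and by -0.52 in ELS (adjusted p = 0.0600), and without the 3 libraries by -0.02 and -0.18. Hspa4 read 53.8 to 180.0 CPM (median 107.4) in P9-CTR and 25.3 to 50.3 (median 33.7) in P200-CTR-PBS, without overlap, and 54.0 to 186.4 (median 120.5) and 35.0 to 97.0 (median 70.4) in the ELS groups, with overlap. It fell by 1.59 in CTR (SE 0.26, adjusted p = 1.15e-06) and 0.75 in ELS (SE 0.26, adjusted p = 0.0157), a call lost without mouse P200_17.2_ELS_PBS (-0.59, adjusted p = 0.0745).

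Among mitochondrial members, 2 of 10 were higher and 4 lower in CTR (17.4% and 26.6% of all genes). In ELS 3 were higher and 4 lower (17.15% and 25%). Hspd1, encoding HSP60, read 158.2 to 217.4 CPM (median 195.6) in P9-CTR and 112.8 to 151.1 (median 134.9) in P200-CTR-PBS. It fell by 0.53 in CTR (SE 0.12, adjusted p = 0.000447) and 0.68 in ELS (SE 0.13, adjusted p = 2.57e-05). Hspe1, encoding its lid HSP10, transcribed from the shared promoter shown above, differed by -0.20 in CTR (SE 0.15, adjusted p = 0.292) and fell by 0.68 in ELS (SE 0.16, adjusted p = 0.000431), and without the 3 libraries it also passed in CTR (-0.31, adjusted p = 0.0214). Hspa9, the mitochondrial HSP70, fell by 0.65 in CTR (SE 0.13, adjusted p = 4.81e-05) and 0.72 in ELS. Dnajc28, a J-domain protein of uncertain function, ran the other way. It read 3.16 to 10.0 CPM (median 7.20) in P9-CTR and 5.14 to 27.9 (median 17.7) in P200-CTR-PBS, where mouse P200_1.1_CTR_PBS was the only adult within the P9 range, and it rose by 1.46 in CTR (SE 0.32, adjusted p = 0.000196) and 1.32 in ELS (SE 0.33, adjusted p = 0.000838).

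Members with nuclear and vesicle roles fell or were not called. Of the 6 nuclear, splicing, ribosome and histone members, 0 rose in either condition, 3 fell in CTR (26.6% of all genes) and 4 in ELS (25%). Dnajc9, a chaperone of histones H3 and H4, read 57.97 to 74.6 CPM (median 66.7) in P9-CTR and 0.0509 to 17.0 (median 14.3) in P200-CTR-PBS. The groups stood far apart, and Dnajc9 fell by 2.34 in CTR (SE 0.36, adjusted p = 3.98e-07) and 2.24 in ELS (SE 0.37, adjusted p = 2.82e-06). In the same libraries 10 of 10 cell cycle genes fell in both conditions (their summed level went from 1408 to 1903 CPM in P9-CTR to 79.5 to 111.8 in P200-CTR-PBS), and their part in the difference of Dnajc9 was not tested. Dnajc2, a J-domain protein bound to ribosomes, fell by 1.05 in CTR and 0.88 in ELS, and Dnajc8, a splicing-associated member, by 0.57 and 0.46. Dnajc13, which acts on endosomes, fell by 0.71 in CTR (SE 0.19, adjusted p = 0.00168) and 1.44 in ELS (SE 0.20, adjusted p = 1.01e-07).

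Dnajc6, encoding auxilin, the J-domain protein that uncoats clathrin vesicles at synapses, had 1503 counts over the 12 P9-CTR mice and 6 over the 7 P200-CTR-PBS mice. Per total count that is a ratio of 147.5 (exact 95% interval 67.6 to 402.4, counting error only), and the ELS groups gave 719 and 6 counts, a ratio of 62.2 (28.5 to 170.2). Hspb8, a small heat shock protein of the autophagy complex with BAG3, had 221 counts in P9-CTR and 0 in P200-CTR-PBS, at least 43.4-fold lower with a floor of 3 counts over the group. In ELS mice it had 216 counts at P9 and 12 in adults, all 12 in 1 mouse. Both genes passed the test in both conditions, but Hspb8 in ELS (adjusted p = 0.0469) lost its call without any 1 of 13 of the 19 mice (adjusted p up to 0.0921) and without the 3 libraries (-2.99, adjusted p = 0.0644). Hspb6, another small heat shock protein, fell by 1.83 in CTR (SE 0.52, adjusted p = 0.00367) and 2.27 in ELS, from 3.13 to 6.39 CPM in P9-CTR to 0.305 to 2.84 in P200-CTR-PBS. Markers of some other cell types fell with these low genes, and those of others did not. The 6 neuronal markers summed to 69.5 to 186.5 CPM in P9-CTR and 2.49 to 11.9 in P200-CTR-PBS, and the 5 border macrophage markers, nearly all of it Mrc1, to 546.5 to 916.3 and 2.84 to 9.62. Of the 6 astrocyte markers, 5 fell and 1 rose in both conditions (medians -4.33 in CTR and -5.14 in ELS on the log2 scale), and the riser was Slc1a3, at 120.1 ± 23.1 CPM in P9-CTR and 356.2 ± 70.4 in P200-CTR-PBS. The 3 tested markers of oligodendrocyte precursors fell in CTR (median -6.25). Oligodendrocyte markers summed to 143.4 ± 15.0 CPM in P9-CTR and 144.0 ± 31.6 in P200-CTR-PBS. In the same groups, endothelial markers summed to 31.0 ± 9.47 and 48.1 ± 11.0 CPM, and monocyte and neutrophil markers to 4.03 ± 1.78 and 6.15 ± 2.64. The part of other cells in the 3 differences was not tested.

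Further members changed at low or moderate level. Hspb3, a small heat shock protein, read 4.72 to 13.5 CPM (median 9.16) in P9-CTR and 14.8 to 27.6 (median 19.18) in P200-CTR-PBS, without overlap, and rose by 1.15 (SE 0.24, adjusted p = 0.000122), while its ELS value was 0.38 (adjusted p = 0.242). Dnajb5, a relative of Dnajb1, read 0.0507 to 11.96 CPM (median 5.07) in P9-ELS and 11.7 to 23.1 (median 18.9) in P200-ELS-PBS, and rose by 1.70 in ELS (SE 0.42, adjusted p = 0.000994). Dnajb7 rose by 1.49 in ELS (adjusted p = 0.0293), from a median of 1.84 to 5.22 CPM, and lost the call without either of 2 mice, P200_17.1_ELS_PBS or P200_20.2_ELS_PBS (adjusted p up to 0.0800). Dnajc18 rose by 0.53 in CTR and 0.76 in ELS. Dnajb13 fell by 1.88 in CTR (SE 0.76, adjusted p = 0.0387), from a median of 1.203 CPM to 0, a call lost without any 1 of 10 of the 19 mice. Of the exon bases of Dnajb13, 30.6% are shared with Ucp2 on the opposite strand. Ucp2 read 450.7 ± 81.6 CPM in P9-CTR and 295.8 ± 66.3 in P200-CTR-PBS, and its part in the difference was not tested. Hspb2, a small heat shock protein of muscle, fell by 2.82 in ELS (SE 0.89, adjusted p = 0.00882), with no P9-ELS or adult mouse above 1.499 CPM. Of the exon bases of Hspb2, 62.1% are shared with Cryab on the opposite strand. Cryab read 5.93 ± 3.27 CPM in P9-ELS and 1.71 ± 1.05 in P200-ELS-PBS, and its part in the difference was not tested.

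**Figure D2:**
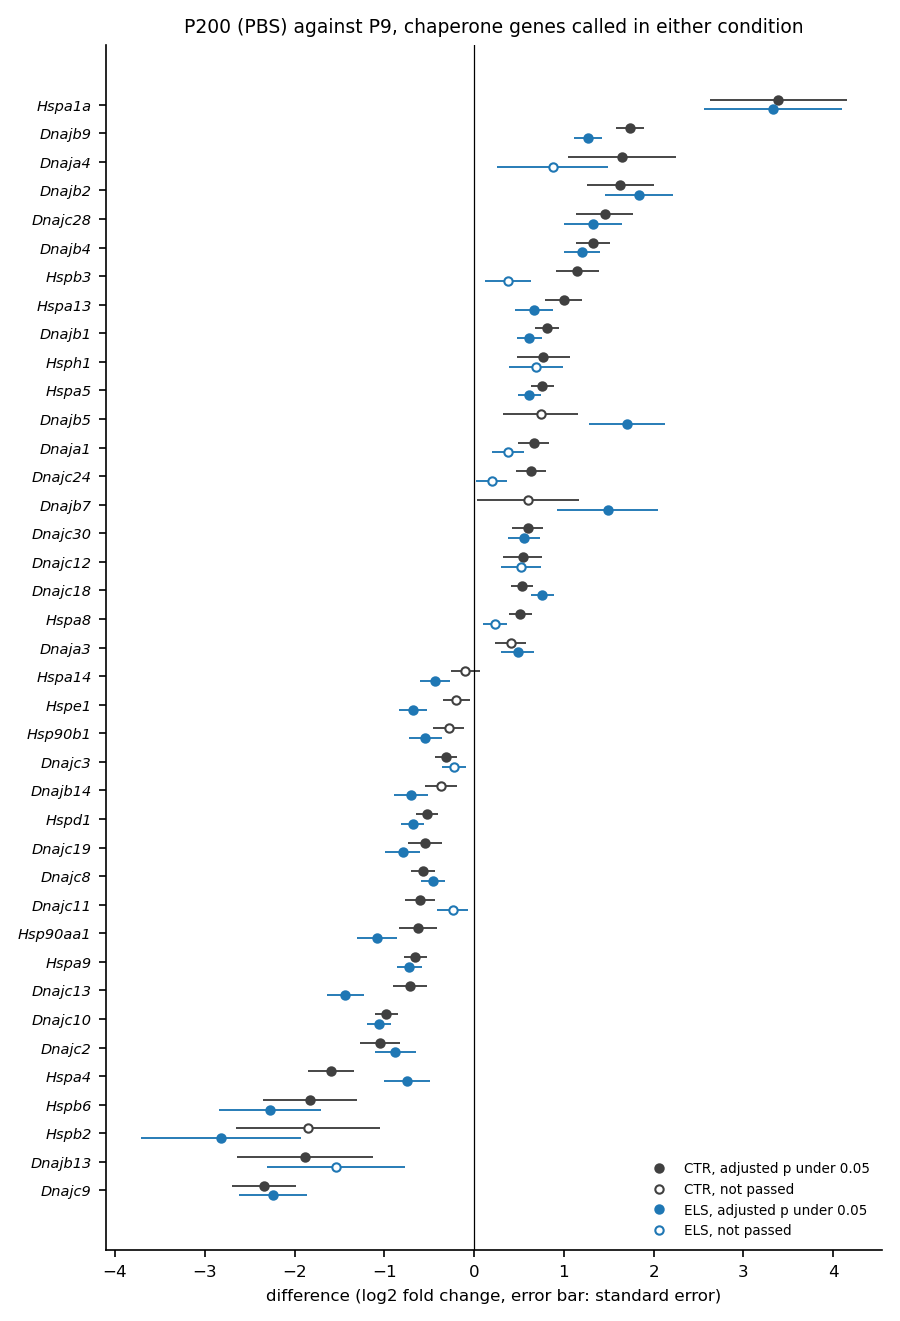
Log2 fold change of P200-PBS over P9 (x axis, 0 = no difference) in CTR and ELS mice for the members that passed in at least 1 condition (y axis), with the SE as bars and filled points where the adjusted p was under 0.05. Hspb8 and Dnajc6, at or near 0 counts in adults, are left out. Hspa1a is highest in both conditions (3.39 and 3.33), and Dnajc9 lies near -2.3 in both.

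Whether the difference between ages was itself different in ELS mice was tested as an interaction, and 0 members passed (0.0299% of all genes, 5 genes, were called). Before adjustment 6 members had a p under 0.05, with Hspa4 at 0.85 (SE 0.34, adjusted p = 0.384) and Dnajc13 at -0.72 (SE 0.27, adjusted p = 0.328) on the log2 scale, the latter the smallest adjusted p. The other 4 were Hspb3, Dnajc15, Hspe1 and Dnajb9. Hspa8, Hsph1, Dnaja1, Dnaja4, Hspb3, Dnajc24, Dnajc12, Dnajc11, Dnajc3 and Dnajb13 passed in CTR and not in ELS. Without the 3 libraries with few detected genes, Dnajc12 lost its call in CTR (0.43, adjusted p = 0.0554). Hsp90b1, Hspe1, Dnajb5, Dnajb7, Dnaja3, Hspa14, Dnajb14 and Hspb2 passed in ELS and not in CTR. None of these members was shown to differ between the conditions.

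With LPS, chaperone genes were called at about the share of all genes in CTR mice, where 5 members rose (8.73% of all genes were called higher) and 5 fell (6.2% lower), with 2 (6.02%) and 1 (3.6%) of them beyond a log2 difference of 1. In ELS mice, 3 rose (7.4%) and 1 fell (4.94%), with 0 (4.69%) and 1 (3.17%) beyond 1. In the same libraries 12 of 13 tested immediate early genes rose with LPS in CTR and 11 of 13 in ELS, with a median log2 difference of 3.79 and 3.95. With total-count scaling, 2 members rose and 8 fell in CTR, where 42.25% of all called genes were higher. In ELS 0 rose and 3 fell, and 34.92% of all called genes were higher. Without the 3 libraries with few detected genes, 13 members passed in CTR and 9 in ELS, and the share of all genes is not given here. The members' medians were 0.02 and 0.08, against 0.00 and -0.04 over all genes. The PBS groups are the same mice as in the comparison between ages.

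Hspa5 was the only member that rose with LPS in both conditions. It read 2535 to 3121 CPM (median 2793) in P200-CTR-PBS and 2626 to 4625 (median 3955) in P200-CTR-LPS, with overlap, and 1762 to 3781 (median 2696) in P200-ELS-PBS against 4637, 3676, 3118, 4589 and 4875 in the 5 P200-ELS-LPS mice. It rose by 0.48 in CTR (SE 0.14, adjusted p = 0.0139) and 0.62 in ELS (SE 0.16, adjusted p = 0.00545), while total-count scaling gave 0.35 (adjusted p = 0.0542) and 0.40 (adjusted p = 0.0508). The other genes with an ER stress element in the window did not pass: Hsp90b1 differed by -0.14 and 0.05, and Dnajc3 by 0.09 and 0.05. Dnajb9 gave -0.36 in CTR mice (adjusted p = 0.181), and its ELS value was -0.32 (adjusted p = 0.340). In the annotation 44.2% of the exon bases of Hspa5 are shared with Rabepk on the opposite strand, and the strand setting of the counting is not given in the sources used here. Rabepk read 13.3 ± 6.33 CPM in P200-CTR-PBS and 13.6 ± 3.85 in P200-CTR-LPS. It read 11.6 ± 3.55 in P200-ELS-PBS and 13.3 ± 2.41 in P200-ELS-LPS, and its part in the difference of Hspa5 was not tested.

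Dnajc28 was the only member that fell in both conditions. It read 5.14 to 27.9 CPM (median 17.7) in P200-CTR-PBS and 1.199 to 8.41 (median 3.56) in P200-CTR-LPS. In ELS mice it read 5.32 to 22.5 (median 20.0) after PBS and 5.39, 7.96, 6.80, 2.47 and 1.16 after LPS. In each condition only 1 PBS mouse, P200_1.1_CTR_PBS and P200_20.2_ELS_PBS, lay within the LPS range, and Dnajc28 fell by 2.15 in CTR (SE 0.38, adjusted p = 2.78e-05) and 1.84 in ELS (SE 0.44, adjusted p = 0.00226). The call held with each mouse left out and under the other alternatives.

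A pair of genes at low level rose in CTR mice. Dnajb13, a J-domain protein known from cilia and sperm tails, had no count in 4 of 7 P200-CTR-PBS mice and at most 1.28 CPM in the others, and 1.17 to 4.19 CPM (median 3.00) in P200-CTR-LPS. Mouse P200_15.2_CTR_LPS was the only LPS mouse within the PBS range, and the log2 difference was 3.09 (SE 0.84, adjusted p = 0.00708). In ELS mice Dnajb13 read 0 to 1.64 CPM (median 0.305) after PBS and 5.68, 1.81, 2.72, 3.46 and 0.867 after LPS, a difference of 2.52 that did not pass (adjusted p = 0.0568). Of the exon bases of Dnajb13, 30.6% are shared with Ucp2, which went from 295.8 ± 66.3 CPM to 505.1 ± 132.6 in CTR and from 318.6 to 604.5 in ELS, and its part in the difference was not tested. Hspa2, an HSP70 best known from germ cells, read 0 to 3.14 CPM (median 1.401) in P200-CTR-PBS and 3.21 to 12.5 (median 5.16) in P200-CTR-LPS, without overlap, and rose by 2.26 (SE 0.58, adjusted p = 0.00374). In ELS mice it read 1.34 to 4.67 CPM (median 2.62) after PBS and 3.96 to 6.86 (median 6.32) after LPS, a difference of 1.01 (SE 0.62, adjusted p = 0.331).

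Smaller differences completed the response of CTR mice. Hspb3, a small heat shock protein, went from 14.8 to 27.6 CPM (median 19.18) after PBS to 6.41 to 13.5 (median 9.53) after LPS, without overlap, and fell by 0.98 (SE 0.28, adjusted p = 0.0117), and the ELS difference was -0.62 (SE 0.32, adjusted p = 0.221). Hsph1 fell by 0.95 (SE 0.34, adjusted p = 0.0492), from a median of 50.1 to 21.3 CPM, and lost the call without any 1 of 11 of the 14 mice (adjusted p up to 0.129). Without the 3 libraries it fell by 1.16 in CTR (adjusted p = 0.000383) and by 0.88 in ELS (adjusted p = 0.0166). Of the mitochondrial chaperones, Hspd1 fell by 0.38 (adjusted p = 0.0484) and Hspa9 rose by 0.41 (adjusted p = 0.0449), and no test compared these genes. Their calls were lost without any 1 of 10 and 9 of the 14 mice, and that of Hspa9 also without the 3 libraries (0.37, adjusted p = 0.0651). With the nest as a replicate block neither Hspd1 (adjusted p = 0.109) nor Hspa9 (adjusted p = 0.164) passed. With total-count scaling Hspa9 gave 0.26 (adjusted p = 0.197). In ELS mice Hspd1 differed by -0.33 (adjusted p = 0.177) and Hspa9 by 0.29 (adjusted p = 0.271). Dnajb14 fell by 0.60 (adjusted p = 0.0321) and Dnajc18 rose by 0.42 (adjusted p = 0.0406), both membrane-anchored J-domain proteins, and these calls were lost without any 1 of 7 and 8 mice. Their ELS differences were -0.39 (adjusted p = 0.301) and 0.12 (adjusted p = 0.708). In ELS mice, Dnajb1 rose by 0.61 (SE 0.17, adjusted p = 0.0129), a call lost without mouse P200_2.2_ELS_LPS (0.45, adjusted p = 0.104) or with total-count scaling (0.40, adjusted p = 0.133), and in CTR it differed by 0.41 (adjusted p = 0.0658). Dnaja2, a cytosolic partner of HSC70, rose by 0.40 in ELS (adjusted p = 0.0359) and lost the call without any 1 of 6 of the 11 mice.

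The inducible HSP70 itself did not pass. Hspa1a read 0 to 13.6 CPM (median 5.61) after PBS and 4.01 to 13.3 (median 8.51) after LPS in CTR, a log2 difference of 0.38 (SE 0.84), and -0.34 (SE 0.95) in ELS. Hsp90aa1 differed by 0.15 and 0.45, Hsp90ab1 by -0.31 and 0.12, and Hspa8 by -0.22 and -0.15. Dnajc9 differed by -0.27 in CTR and passed without the 3 libraries (-0.49, adjusted p = 0.0364). With 0 members called, the LPS response was not shown to differ between ELS and CTR (interaction, 0% of all genes called by the quasi-likelihood method). The unadjusted p was under 0.05 for 2 members, Dnajc15 at 0.73 (SE 0.27, adjusted p = 0.573) and Dnajc6, near 0 counts.

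**Figure D3:**
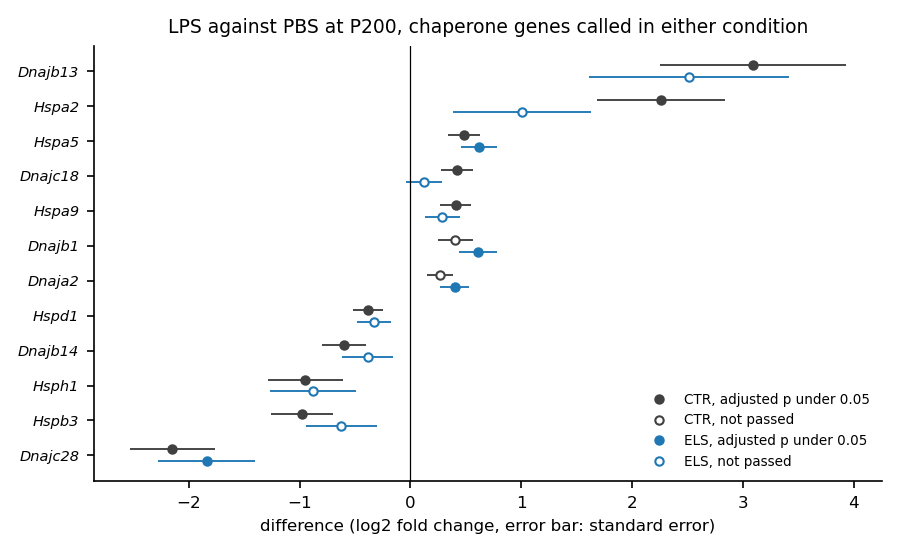
Log2 fold change of LPS over PBS at P200 (x axis, 0 = no difference) in CTR and ELS mice for the members that passed in at least 1 condition (y axis), with the SE as bars and filled points where the adjusted p was under 0.05. Dnajc28 is filled and negative in both conditions, Hspa5 is filled and positive in both, and the widest bars belong to Dnajb13.

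**Figure D4:**
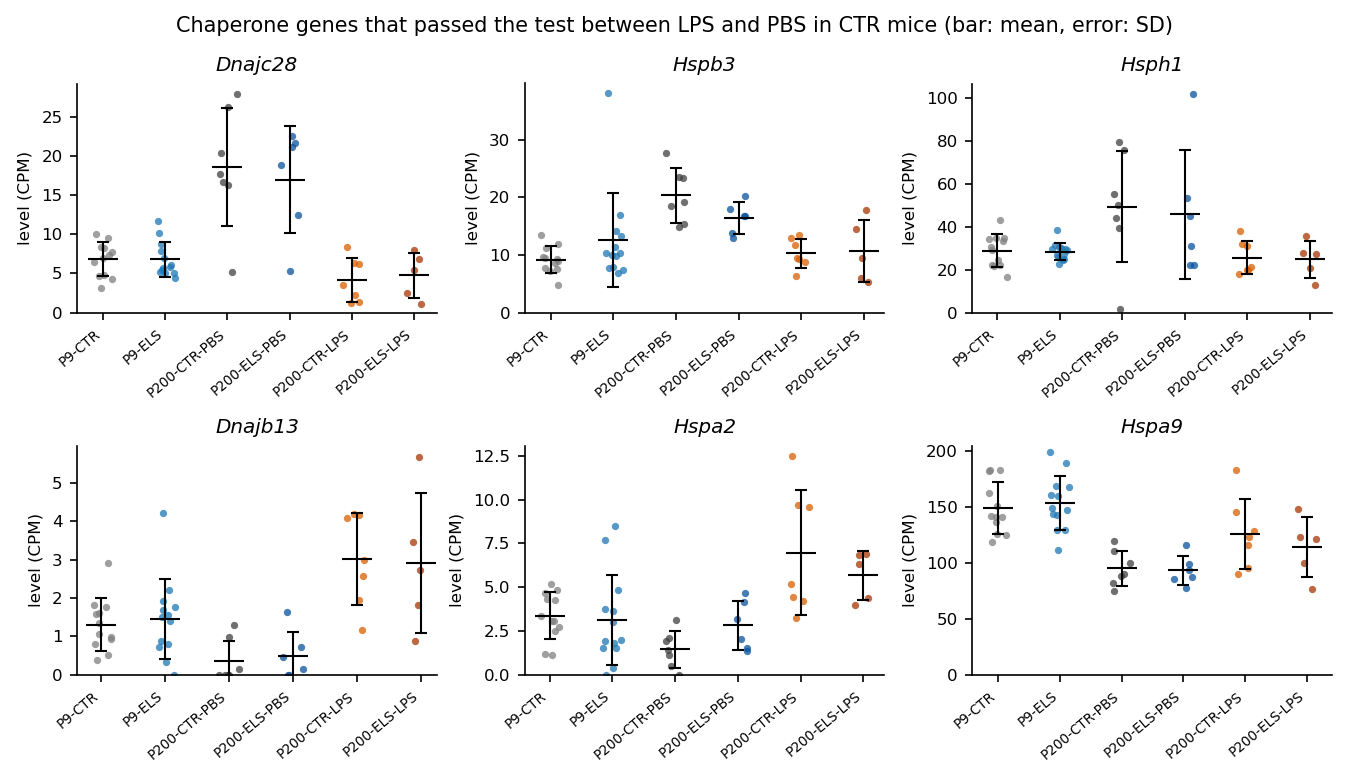
Level in CPM (y axis, from 0) of 6 members that passed between LPS and PBS in CTR mice, in each of 50 mice (points) by group (x axis), with the mean and SD as bars. Dnajc28 is highest in the PBS-injected adults (means 18.6 and 17.0 CPM) and lower in the LPS-injected adults (4.18 and 4.75), and mouse P200_1.1_CTR_PBS is the lowest Hsph1 point at 1.73 CPM.

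The partners of these chaperones were read as lists outside the members. Of 29 heat shock factors and co-chaperones, 10 rose and 4 fell between P9 and P200 in CTR (17.4% and 26.6% of all genes). In ELS 8 rose and 5 fell (17.15% and 25%). The medians in CTR and ELS were 0.17 and 0.09 on the log2 scale. Chordc1, a co-chaperone of HSP90, rose by 1.38 in CTR and 0.78 in ELS, Bag3, a nucleotide exchange factor for HSP70, by 0.76 and 0.87, and Hsf1, the heat shock factor, by 0.55 and 1.15. Cdc37, which brings kinases to HSP90, fell by 0.50 and 0.55, and Stub1, the ubiquitin ligase CHIP, by 0.92 and 0.66. With LPS, 1 rose and 2 fell in CTR (8.73% and 6.2% of all genes) and 3 rose in ELS (7.4%). Among them Fkbp5, an HSP90 co-chaperone of steroid receptors, rose by 1.74 (SE 0.24, adjusted p = 1.89e-07) and 0.86 (SE 0.27, adjusted p = 0.0230). Of the 8 genes of the TRiC chaperonin, which folds actin and tubulin, 2 rose and 1 fell between P9 and P200 in CTR and 5 fell in ELS (medians -0.12 and -0.41), and with LPS 1 fell in CTR and 0 passed in ELS. The shares of all genes are those given above, and no list was tested against them. Between ELS and CTR and in both interactions, 0 genes of either list passed.

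Taken over the 50 mice, those with more Hspa1a than their group's mean tended to have more Dnajb1. Log2 CPM was centred on each group's mean so that group differences dropped out, and 7 relations of Hspa1a were computed over the 50 mice with p from 100000 permutations within groups. Hspa1a and Dnajb1 gave a Pearson r of 0.599 (permutation p = 1e-05, the smallest possible here, adjusted p = 7e-05) and a Spearman rho of 0.623 (permutation p = 1e-05, adjusted p = 7e-05). Without the 2 mice farthest out in Hspa1a, P200_1.1_CTR_PBS and P200_4.1_ELS_PBS, r was 0.569, and by group it ran from 0.0607 in P200-ELS-LPS to 0.897 in P200-CTR-LPS. With Hsph1, r was 0.601 (permutation p = 0.00044, adjusted p = 0.00154) and rho 0.374 (permutation p = 0.00789, adjusted p = 0.0184), and r fell to 0.388 without those mice, so much of this r rested on these mice, and by group it ran from -0.177 to 0.960. With the mean of the immediate early genes, r was 0.461 (permutation p = 0.00538, adjusted p = 0.0126) and rho 0.410 (permutation p = 0.00766, adjusted p = 0.0184), and 0.317 without them, with -0.292 to 0.881 by group. For Hspa1b, r was 0.397 (permutation p = 0.0171, adjusted p = 0.0300) and rho 0.293 (permutation p = 0.0433, adjusted p = 0.0758), and 0.316 without them, in sparse counts with shared sequence. No relation was found with Hspa8 (r = 0.146, rho = 0.0852), Hsp90aa1 (r = 0.0644, rho = 0.147) or Hspa5 (r = 0.0868, rho = 0.0633), whose adjusted permutation p-values were 0.495, 0.678 and 0.656 for r and 0.677, 0.416 and 0.677 for rho. Hspa1a was near 0 at P9, with 159 counts in 9 of 12 P9-CTR mice and 187 in 10 of 13 P9-ELS mice. Its centred values at P9 therefore rest on few counts. Mice P9_19.2_ELS and P9_19.3_ELS, with few detected genes, stayed in all these relations. All mice share the sorting and library steps, and the part of depth or handling was not tested.

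**Figure D5:**
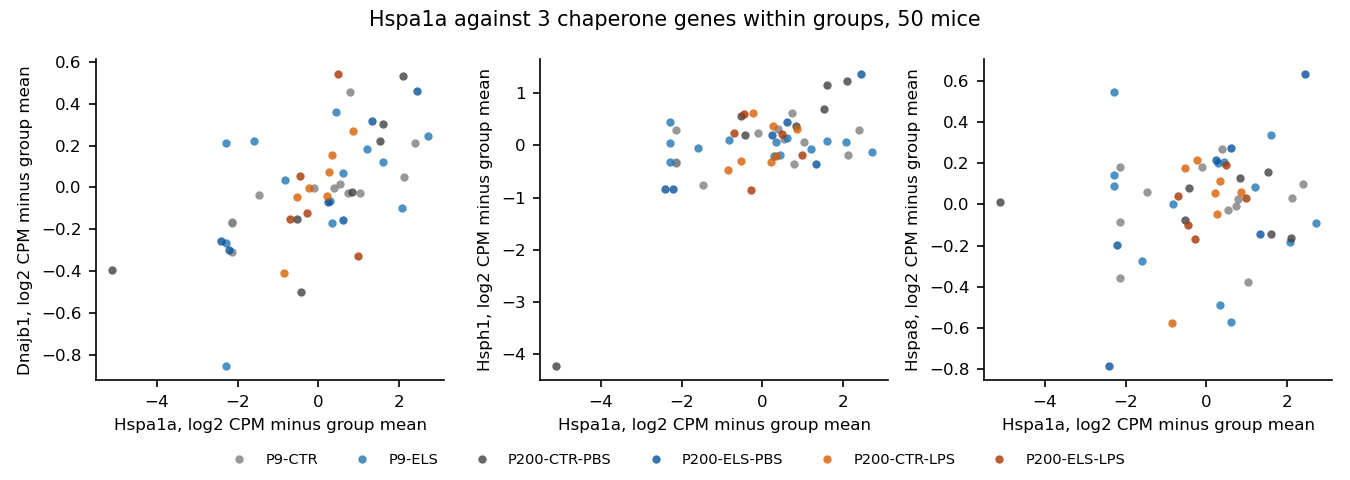
Hspa1a (x axis) against Dnajb1, Hsph1 and Hspa8 (y axes), each as log2 CPM minus the group mean, for 50 mice coloured by group. Points rise together for Dnajb1 (r = 0.599) and show no trend for Hspa8 (r = 0.146). For Hsph1, with 1 distant mouse, r was 0.601, and 0.388 without the 2 mice farthest out in Hspa1a.

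Several members share sequence with other genes, which bears on unique-read counts. Of the 100-base stretches of the canonical transcript, 70.2% occur unchanged elsewhere in the genome for Dnajb6, 63.8% for Hspa8, 56% for Hsp90aa1, 34.2% for Hspd1 and 20.4% for Hspe1. The read length is not given in the sources used here, so how many reads this left uncounted was not tested. Of the 64 members, 46 share exon bases with another annotated gene and 12 share over 20%, with Dnaja1 highest at 84.2%.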

How the data were processed

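RNA-seq counts per gene were deposited by the authors for each of the 50 mice. Per the labels and the study's methods, reads were demultiplexed with bcl2fastq 2.20, trimmed with cutadapt 2.10, aligned with STAR to GRCm39 and counted with HTSeq 0.11.0. Multi-mapping reads were not counted, which lowers genes with copies. The annotation release, read length and strand setting are not given in the sources used here.

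Genes with at least 1 CPM in 3 mice were tested with edgeR 4.0.16 (TMM, quasi-likelihood, 6 group means over all 50 mice, R 4.3.3), with Benjamini-Hochberg adjustment over 16696 genes and a threshold of 0.05. Fold changes are log2, and the SE was taken from the F statistic. Levels are CPM on TMM-scaled totals, and shares use raw totals. The fit was tested on simulated counts. The members and lists were chosen with earlier results of these data known. The genes named were 17 core members and, in each comparison, the 8 members called with the largest rise and the 8 with the largest fall, and lists give their counts. Hspbp1 was dropped from the co-chaperone list as a member. Further genes of few called were named after their values were seen.

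Alternatives were the likelihood-ratio and robust tests, DESeq2 1.42.0, limma 3.58.1 voom with the nest, the nest as a block, RLE and total-count scaling, other count limits, fits of the compared groups alone, and leaving out mice. Motifs, exon lengths and shared stretches were computed on GRCm39 with its GENCODE annotation, which held all 74 members and 52610 of 53700 genes. Total counts of 5152838 to 42231258 set the precision. The per-mouse counts of all files were used. The name of 1 member below the limit is not reported here.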

Additional observations from a re-analysis of the deposited data

Results flagged for a closer look

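In each group of 4 to 10 mice, the highest and lowest value of the 17 core members was set against Dixon's critical value, and 8 of 68 such groups held a mouse far from the others (chance alone gives about 1 in 20). In P200-CTR-PBS, mouse P200_1.1_CTR_PBS stood apart in 3 genes, with Hspa1a at 0 CPM against 2.13 to 13.6 in the other 6 mice, Hsph1 at 1.73 against 39.3 to 79.8, and Dnajc9 at 0.0509 against 13.2 to 17.0. This library had 12854 detected genes. In P200-CTR-LPS, mouse P200_5.3_CTR_LPS was lowest in 3 abundant genes, with Hspa8 at 1708 CPM against 2464 to 2957, Hsp90ab1 at 290.6 against 510.2 to 709.5, and Hsp90b1 at 487.9 against 871.2 to 1187. In P200-ELS-LPS, mouse P200_11.2_ELS_LPS had Dnajc9 at 23.6 CPM against 9.06 to 10.9 in the other 4, and mouse P200_17.3_ELS_LPS was the only one with a count of Hspb1, at 0.0549 CPM. With the other 4 at 0, any count would stand apart in this way, so nothing is read from it, though it is counted among the 8.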

How the results depend on the processing

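No value changed sign among those that had passed. Called members numbered 33 for age in CTR, 31 for age in ELS, 10 for LPS in CTR and 4 for LPS in ELS. With a log2 difference above 1 required, these became 14, 15, 3 and 1. For ELS against CTR among PBS-injected adults, the likelihood-ratio test called 1 member and DESeq2 called 1, Hspa4 in both, in place of 0. Without a filter on low counts, LPS in CTR gave 5, and without the 3 mice with the fewest detected genes, LPS in ELS gave 9. With 1 mouse left out in turn, the counts ran from 30 to 35 and from 28 to 38 for age, from 5 (without P200_8.2_CTR_LPS or P200_8.3_CTR_LPS) to 11 (without P200_1.1_CTR_PBS) for LPS in CTR, and from 2 (without P200_2.2_ELS_LPS) to 5 (without P200_2.1_ELS_PBS) for LPS in ELS. DESeq2 called 13 and 6 for LPS. The shares of all genes called with mice left out, without the filter or with DESeq2 are not given here. Total-count scaling moved the median of all genes by -0.11 for age in CTR and by -0.13 and -0.21 for LPS in CTR and ELS, and members then split into 15 higher and 21 lower (17 and 16 with TMM), 2 and 8 (5 and 5), and 0 and 3 (3 and 1). RLE factors gave 5 and 3 for LPS in CTR. With the length of the canonical transcript, Hspa8 stood at 2.23 times Hspa5 per kb, against 0.688 with all exons. Hsph1 passed neither for age nor for LPS in CTR when limma voom took the nest as a random effect (0.26, adjusted p = 0.613, and -0.41, adjusted p = 0.603), and Dnajb2 did not for age in CTR (1.04, adjusted p = 0.1104). The causes were not tested.

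At P200, PBS and LPS mice of 1 nest were only weakly correlated. A PBS and an LPS mouse of 1 nest gave a mean r of 0.0237 between their deviations from the group means (-0.0419 to 0.102 over 15 pairs, 1 above 0.1), against -0.00517 across nests. The consensus correlation within nests of both ages in limma voom was 0.0778. With the nest as a replicate block, 7 members passed for LPS in CTR and 3 in ELS, and 0 in the interaction. Counts near 0 in some groups limit Hspb8, Dnajc6, Dnajb13, Hspa1b and Hspb1, and groups of 5 to 7 adults leave median SEs of 0.22 to 0.26 for differences among adults.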

Other observations

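Among the 10 members below the limit on CPM, Hspb1, the best known small heat shock protein, had 63 counts over the 12 P9-CTR mice, 35 in P9-ELS, 19 in P200-CTR-PBS, 0 in P200-ELS-PBS, 9 in P200-CTR-LPS and 1 in P200-ELS-LPS. Hspa1b had 13 counts in P200-CTR-LPS and 7 in P200-ELS-LPS, against 52 and 53 after PBS. Read per total count, Hspa1b after LPS was 0.240 times its PBS level in CTR (exact 95% interval 0.120 to 0.448, counting error only) and 0.213 times in ELS (0.0815 to 0.469), while Hspa1a was 1.09 times (1.00 to 1.19) and 0.848 times (0.753 to 0.955). Neither ratio includes the spread between mice, and most Hspa1b counts after PBS came from few animals, with at most 1.15 CPM in CTR and 1.68 in ELS.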
